A study of Mus musculus with 14 samples.

Results

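Duodenal bicarbonate and ion transport genes were examined in the mouse duodenal mucosa after fasting and after a low-fat (LF) or high-fat (HF) meal. The 9 genes Cftr, Slc26a3, Slc26a6, Slc4a4, Slc9a2, Slc9a3, Slc13a1, Car2 and Car4 were taken by name from the platform annotation, out of 18193 genes with a probe set of their own. They were measured by 20 of the 45037 probe sets tested, a probe set being a group of short probes read together, some of which match several transcripts. The mice were male C57BL6 animals bought at 12 wk of age, kept for 2 wk on the LF diet, and all fasted for 12 h overnight. The Fasting group was then killed, and the other groups were given free access to an LF meal with 10% of calories from fat and 70% from carbohydrate, or to an HF meal with 60% from fat and 20% from carbohydrate. They were killed 30 min, 1 h or 3 h after the meal began, giving the groups LF30min, LF1h, LF3h, HF30min, HF1h and HF3h. Scraped mucosa of the 20 mice of a group was represented by 1 RNA pool, which was hybridized to 2 Affymetrix MOE 430 v2.0 arrays, so that 14 arrays were compared. The 2 arrays of a group are technical replicates: an error given here is the spread between arrays, and the spread between mice was not measured.

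The duodenum neutralizes gastric acid by secreting bicarbonate. In its epithelium, bicarbonate enters the cell through the basolateral sodium bicarbonate cotransporter or is made by carbonic anhydrase, and leaves across the apical membrane through the chloride channel CFTR and the anion exchangers of the SLC26 family, while apical sodium/proton exchangers absorb sodium in exchange for acid. CFTR is most abundant in crypts and Brunner glands, whereas the exchangers and the sulfate carrier SLC13A1 belong mainly to the villus.

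In the first 30 min of the HF meal, the channel gene Cftr rose 1.64-fold over fasting, and in both meals it then fell, by 3 h, to 1.52-fold (LF) and 1.94-fold (HF) below its 30 min level. Slc26a3, the apical chloride/bicarbonate exchanger, fell 1.48-fold below fasting 3 h after the LF meal and was 1.38-fold higher 3 h after the HF meal than 3 h after the LF meal. That difference between the meals passed the test by the brightest Slc26a3 probe set alone. The sulfate carrier gene Slc13a1 fell 1.35-fold after 3 h of the HF meal by its brightest probe set. Another of its probe sets fell 3.33-fold after 1 h of the LF meal and 2.81-fold after 3 h of the HF meal. After 1 h of the LF meal, the brightest probe set was 1.06-fold below fasting, which did not pass the test. For Slc26a6, Slc9a2 and Car2 no probe set passed the test in any of the 11 comparisons.

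The promoters of Cftr, Slc26a3 and Slc4a4 are shown first as RefSeq gives them on GRCm38.p6 (250 bases before the start site to 50 after it, all on the + strand). For these 3 members a fall passed the test by at least 1 probe set in at least 1 comparison. For Cftr this was only from 30 min to 3 h, and for Slc4a4 it was not by the brightest probe set. Capitals mark matches, on either strand, to 4 short motifs: the GC box GGGCGG, the TATA box TATAAA, the cAMP response element half-site TGACG and the CDX core TTTATG. The windows lie at chr6:18170437-18170736 (Cftr), chr12:31437969-31438268 (Slc26a3), chr5:88887010-88887309 (Slc4a4, upstream start) and chr5:89027716-89028015 (Slc4a4, downstream start).
Cftr: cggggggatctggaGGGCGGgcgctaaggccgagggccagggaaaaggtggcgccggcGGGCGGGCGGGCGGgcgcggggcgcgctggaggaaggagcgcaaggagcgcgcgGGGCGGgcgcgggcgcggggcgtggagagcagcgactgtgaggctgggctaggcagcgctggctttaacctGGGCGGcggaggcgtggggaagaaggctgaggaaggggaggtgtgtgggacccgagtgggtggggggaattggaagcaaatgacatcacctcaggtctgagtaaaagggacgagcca
Slc26a3: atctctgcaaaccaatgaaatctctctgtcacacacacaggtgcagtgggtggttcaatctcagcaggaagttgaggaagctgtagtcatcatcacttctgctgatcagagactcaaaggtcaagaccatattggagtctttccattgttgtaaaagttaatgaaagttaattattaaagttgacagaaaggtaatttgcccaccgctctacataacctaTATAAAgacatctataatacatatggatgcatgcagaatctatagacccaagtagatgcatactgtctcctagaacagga
Slc4a4, upstream start: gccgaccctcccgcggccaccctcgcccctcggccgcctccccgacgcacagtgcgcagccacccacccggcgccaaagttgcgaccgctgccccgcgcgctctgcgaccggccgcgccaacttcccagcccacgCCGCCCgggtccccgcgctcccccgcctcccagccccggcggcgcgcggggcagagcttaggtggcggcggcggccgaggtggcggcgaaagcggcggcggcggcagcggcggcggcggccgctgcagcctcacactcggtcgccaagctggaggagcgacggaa
Slc4a4, downstream start: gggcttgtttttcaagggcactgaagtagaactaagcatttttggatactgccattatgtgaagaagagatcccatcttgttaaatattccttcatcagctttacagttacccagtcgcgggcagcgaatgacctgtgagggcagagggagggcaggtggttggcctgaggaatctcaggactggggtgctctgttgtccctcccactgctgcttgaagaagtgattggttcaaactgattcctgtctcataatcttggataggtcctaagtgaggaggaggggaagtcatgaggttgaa
The Cftr window held 6 GC box matches, of which 3 overlapped, and no TATA box. The Slc26a3 window held no GC box and 1 TATA box at position -30. The upstream Slc4a4 window held 1 GC box at -115, and the downstream window held none of the 4 motifs. Of 32851 windows of the same length over all genes, 35.7% held GGGCGG, 13.6% held TATAAA, 20.8% held TGACG and 11.9% held TTTATG. Matches are given as letters in these windows, and binding was not measured.

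The values were log2 intensities after robust multi-array averaging (RMA), on which a difference of 1 is a 2-fold change. A gene was called where limma's moderated test gave an adjusted p under 0.05, with the probe set of the highest mean over all 14 arrays standing for a gene. Against Fasting, 0 of the 9 genes were called in LF30min (background over all genes 0.335% higher and 0.066% lower), with 2 at an unadjusted p under 0.05, against 7.17% of all genes. In LF1h, limma called 0 of 9 (background 1.18% higher, 0.368% lower), with 0 at an unadjusted p under 0.05 (11.4% of all genes). In LF3h, Slc26a3 alone was called, and it was lower (background 3.13% higher, 2.28% lower), with 5 at an unadjusted p under 0.05 (18.4%). In HF30min, Cftr alone was called, and it was higher (background 0.759% higher, 0.363% lower), with 3 at an unadjusted p under 0.05 (13.1%). In HF1h, limma called 0 of 9 (background 0.649% higher, 0.357% lower), with 2 at an unadjusted p under 0.05 (12.0%). In HF3h, Slc13a1 alone was called, and it was lower (background 2.97% higher, 3.7% lower), with 5 at an unadjusted p under 0.05 (19.4%). The 6 comparisons share the 2 Fasting arrays.

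Between the meals, Car4 was called higher in HF30min than in LF30min (1 of 9 genes; background 0.297% higher, 0.253% lower). In HF1h against LF1h, limma called 0 of 9 (background 0.066% higher, 0.159% lower), with 1 at an unadjusted p under 0.05 (11% of all genes). Slc26a3 was called higher in HF3h than in LF3h (1 of 9; background 1.19% higher, 1.01% lower). Within the LF meal, 3 of 9 genes fell from 30 min to 3 h (Cftr, Slc26a3 and Slc13a1; background 2.32%) and 1 rose (Car4; background 1.99%). Within the HF meal, the same comparison gave 3 of 9 genes lower (Cftr, Slc26a3 and Slc13a1; background 5.87%) and 0 higher (background 3.08%). The median change over the 9 genes was -0.21 within the LF meal and -0.14 within the HF meal, against -0.01 and 0.01 over all genes, and it lay between -0.15 and 0.10 in the other 9 comparisons. At an unadjusted p under 0.05 stood 4 of 9 in HF30min against LF30min (9.92% of all genes), 2 in HF3h against LF3h (16.4%), 7 in LF3h against LF30min (16.9%) and 4 in HF3h against HF30min (23.5%). No standing probe set of a member passed a 2-fold change.

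**Figure D1:**
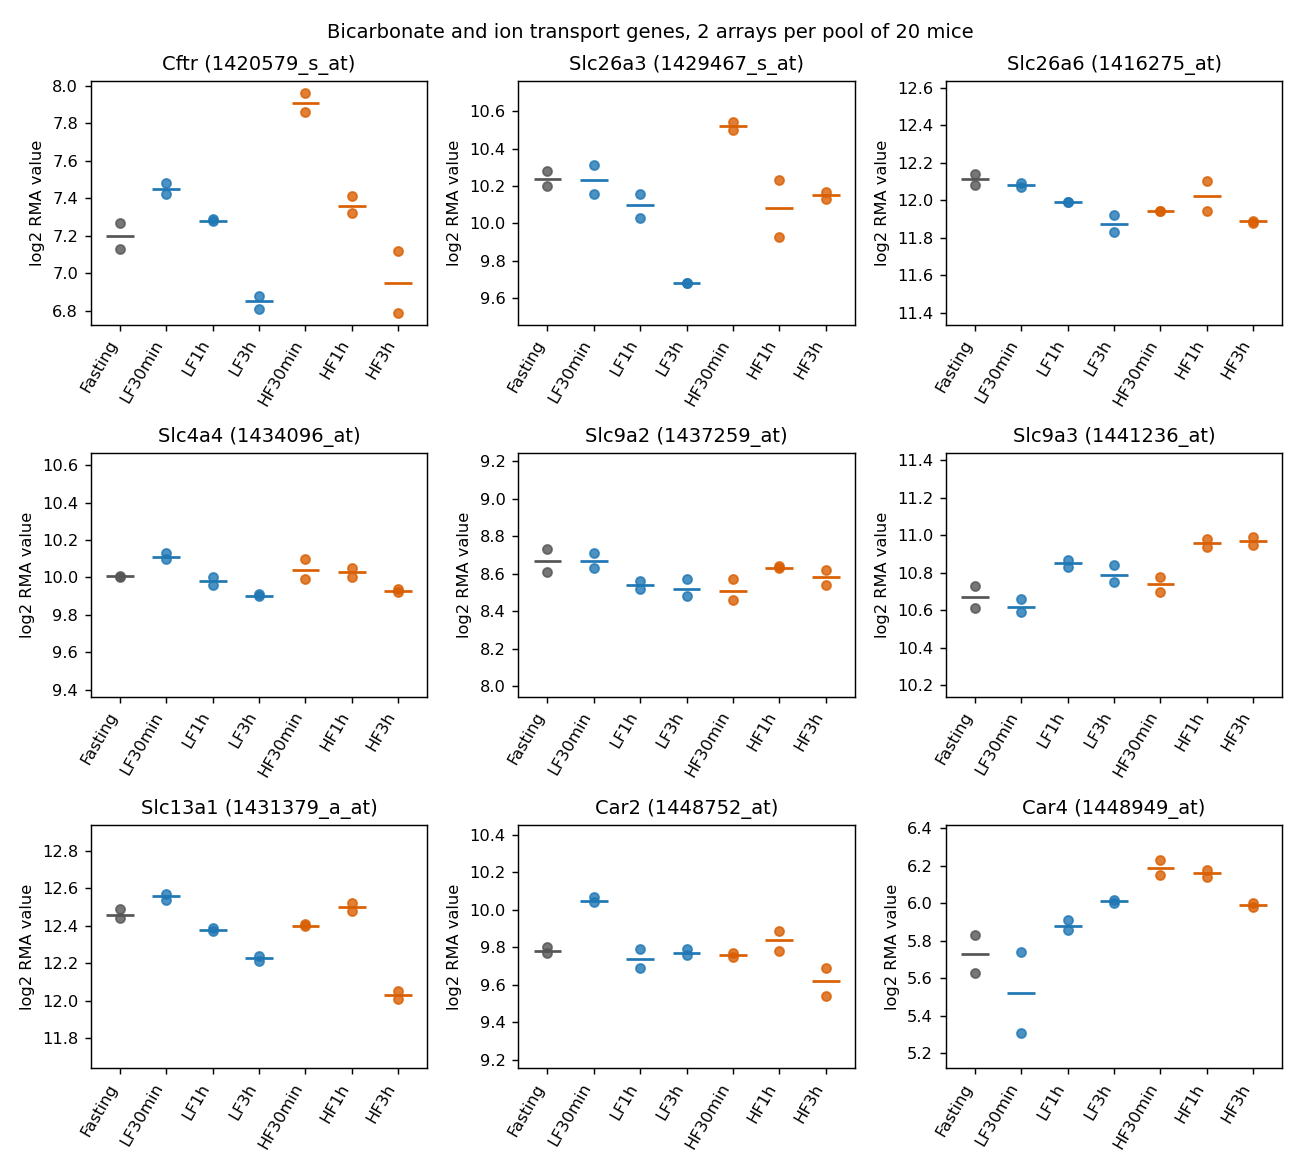
Log2 RMA value (vertical axis, which does not start at 0 and has its own range in each panel) of the standing probe set of each of the 9 genes in the 7 groups (horizontal axis). Points are the 2 arrays of a pool and lines their mean; Cftr and Slc26a3 are highest in HF30min, with means of 7.91 and 10.52, and Slc13a1 is lowest in HF3h, with a mean of 12.03.

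Cftr encodes the cAMP-regulated chloride and bicarbonate channel of the apical membrane. Its log2 values (probe set 1420579_s_at) were 7.27 and 7.13 after fasting, 7.42 and 7.48 in LF30min, 7.29 and 7.28 in LF1h, 6.81 and 6.88 in LF3h, 7.86 and 7.96 in HF30min, 7.41 and 7.32 in HF1h and 6.79 and 7.12 in HF3h. Both HF30min arrays lay above all other arrays, both LF30min arrays lay next, and the arrays of LF3h and HF3h were the lowest and overlapped each other. The level in HF30min exceeded fasting by 0.71 ± 0.11 on the log2 scale (SE, 2 arrays a group), a 1.64-fold rise with an adjusted p of 0.0037 by limma. That call was lost without Fasting array 2 (adjusted p = 0.058) and without HF30min array 2 (0.069), and where both probe sets of the gene were averaged (0.44, adjusted p = 0.077), and over the 20 alternatives that refit the data the adjusted p ranged from 9.1e-06 to 0.077. Counts of alternatives given for a call leave out the 2-fold minimum, which changes the threshold and not the fit. The difference between HF30min and LF30min was 0.46 with a 95% interval of 0.24 to 0.69, and its adjusted p of 0.097 missed the threshold. From 30 min to 3 h, Cftr fell by 0.96 on the log2 scale in the HF meal (SE 0.11, adjusted p = 8.7e-05 by limma), a call kept under all 20 refits but 1.94-fold in size and so under the 2-fold minimum. In the LF meal it fell by 0.60 (SE 0.11, adjusted p = 0.0063 by limma), a call lost without LF3h array 1 (0.061). Compared with fasting, the 3 h values were -0.35 (LF3h, adjusted p = 0.083) and -0.24 (HF3h, adjusted p = 0.24), neither of them called. The other probe set of the gene, 1427767_a_at, had a mean of 3.14, below the array medians of 4.47 to 4.55, and no call. In a pooled mucosa, a lower level from fewer cells of a type cannot be told apart from less RNA per cell.

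**Figure D2:**
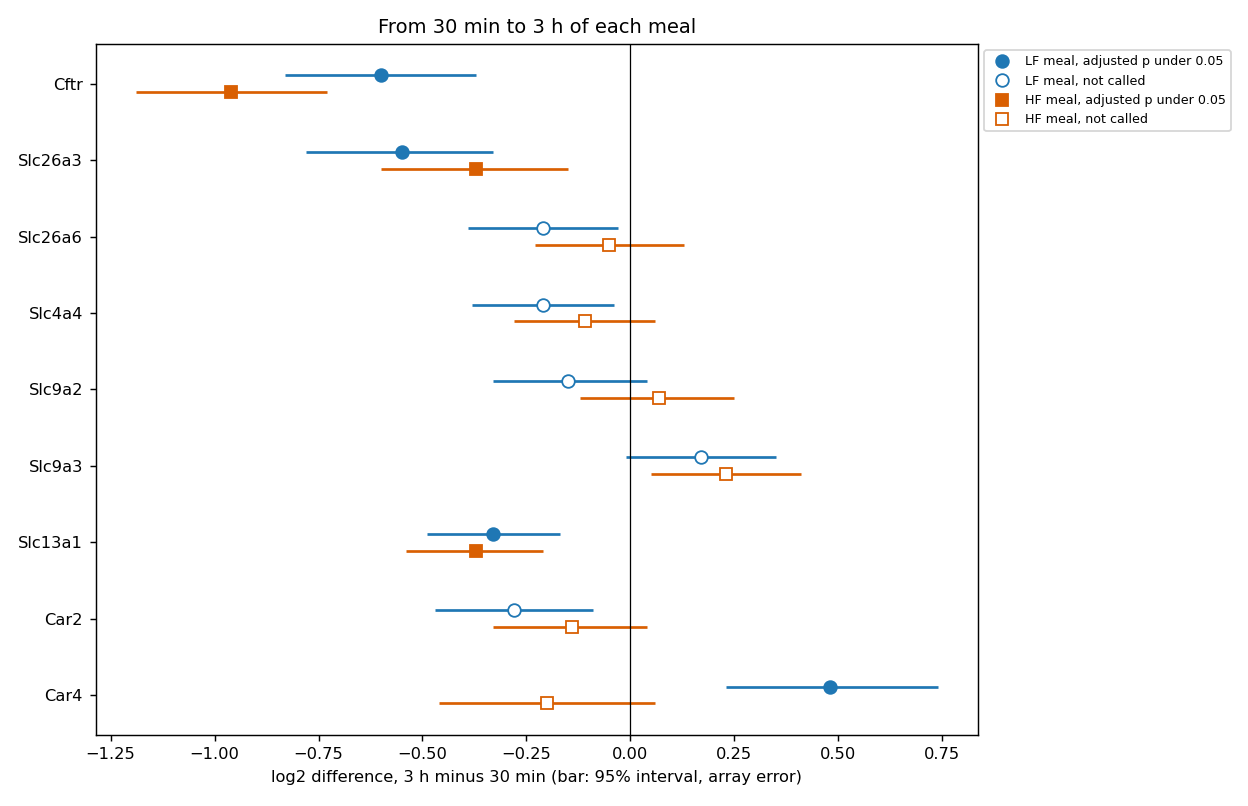
Log2 difference between 3 h and 30 min (horizontal axis) for the standing probe set of each gene, in the LF meal (circles) and the HF meal (squares), with 95% intervals that cover array error and filled symbols for an adjusted p under 0.05. Cftr, Slc26a3 and Slc13a1 lie below 0 in both meals, and Car4 lies above 0 at 0.48 in the LF meal.

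Slc26a3 encodes the apical chloride/bicarbonate exchanger also called DRA, which absorbs chloride while releasing bicarbonate. Its log2 values (1429467_s_at) were 10.20 and 10.28 after fasting, 10.16 and 10.31 in LF30min, 10.16 and 10.03 in LF1h, 9.68 and 9.68 in LF3h, 10.54 and 10.50 in HF30min, 10.23 and 9.93 in HF1h and 10.13 and 10.17 in HF3h. The LF3h arrays were the lowest and the HF30min arrays the highest, with no overlap with any other group at either end, while Fasting, LF30min, HF3h, LF1h and HF1h lay between them, and each overlapped its neighbour in that order. In LF3h the gene fell by 0.56 on the log2 scale against fasting (SE 0.10, adjusted p = 0.0067 by limma), and this call was lost without Fasting array 2 (0.063) or LF3h array 2 (0.061). It also fell by 0.55 from LF30min to LF3h (SE 0.10, adjusted p = 0.0092 by limma), which was lost without LF30min array 2 (0.074), LF3h array 1 (0.064) or LF3h array 2 (0.075). HF3h differed from fasting by -0.09 with a 95% interval of -0.32 to 0.13. The direct comparison of HF3h with LF3h gave 0.47 ± 0.10 (adjusted p = 0.039 by limma). This last call was lost under 11 of 21 alternatives, which included leaving out either array of Fasting, LF3h, HF30min or HF3h, with adjusted p between 5.7e-05 and 0.23 over all of them. The decline from HF30min to HF3h, 0.37 in size with an adjusted p of 0.047, was lost under 12 of 21, including the omission of either array of Fasting, LF3h, HF30min or HF3h, with adjusted p from 0.00041 to 0.20. With the replicate number as a block, the adjusted p was 0.053 for the difference between the meals and 0.059 for this decline.

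Another pair of Slc26a3 probe sets followed the same course. By 1421445_at the values were 8.96 and 9.0 after fasting, 8.81 and 9.12 in LF30min, 8.90 and 8.70 in LF1h, 8.54 and 8.44 in LF3h, 9.18 and 9.22 in HF30min, 8.96 and 8.95 in HF1h and 8.90 and 8.85 in HF3h, again lowest in LF3h and highest in HF30min. This probe set fell by 0.49 in LF3h against fasting (adjusted p = 0.017 by limma) and by 0.48 from LF30min to LF3h (adjusted p = 0.025), while HF3h against LF3h was 0.38 with an adjusted p of 0.094. The LF3h fall was lost without either array of Fasting or LF3h, with adjusted p up to 0.15, and the LF30min to LF3h fall was lost without LF30min array 2 or either LF3h array, up to 0.19. By 1427547_a_at no comparison was called, and its lowest and highest groups were the same ones, at means of 8.57 in LF3h and 9.08 in HF30min. Across the 7 group means, the 3 probe sets correlated with each other at r of 0.88 to 0.97. The remaining probe set, 1453151_at, had a mean of 3.78 and no call.

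Slc26a6, the apical anion exchanger also called PAT1, varied little. Its values (1416275_at) were 12.08 and 12.14 after fasting, 12.09 and 12.07 in LF30min, 11.99 and 11.99 in LF1h, 11.83 and 11.92 in LF3h, 11.94 and 11.94 in HF30min, 11.94 and 12.10 in HF1h and 11.88 and 11.89 in HF3h. The groups spanned 11.87 to 12.11, with Fasting highest and LF3h and HF3h lowest and overlapping. The largest difference from fasting was -0.24 in LF3h, with a 95% interval of -0.42 to -0.06 and an adjusted p of 0.14 by limma. HF3h gave -0.23 (adjusted p = 0.16), and the 3 differences between the meals lay between -0.14 and 0.03.

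**Figure D3:**
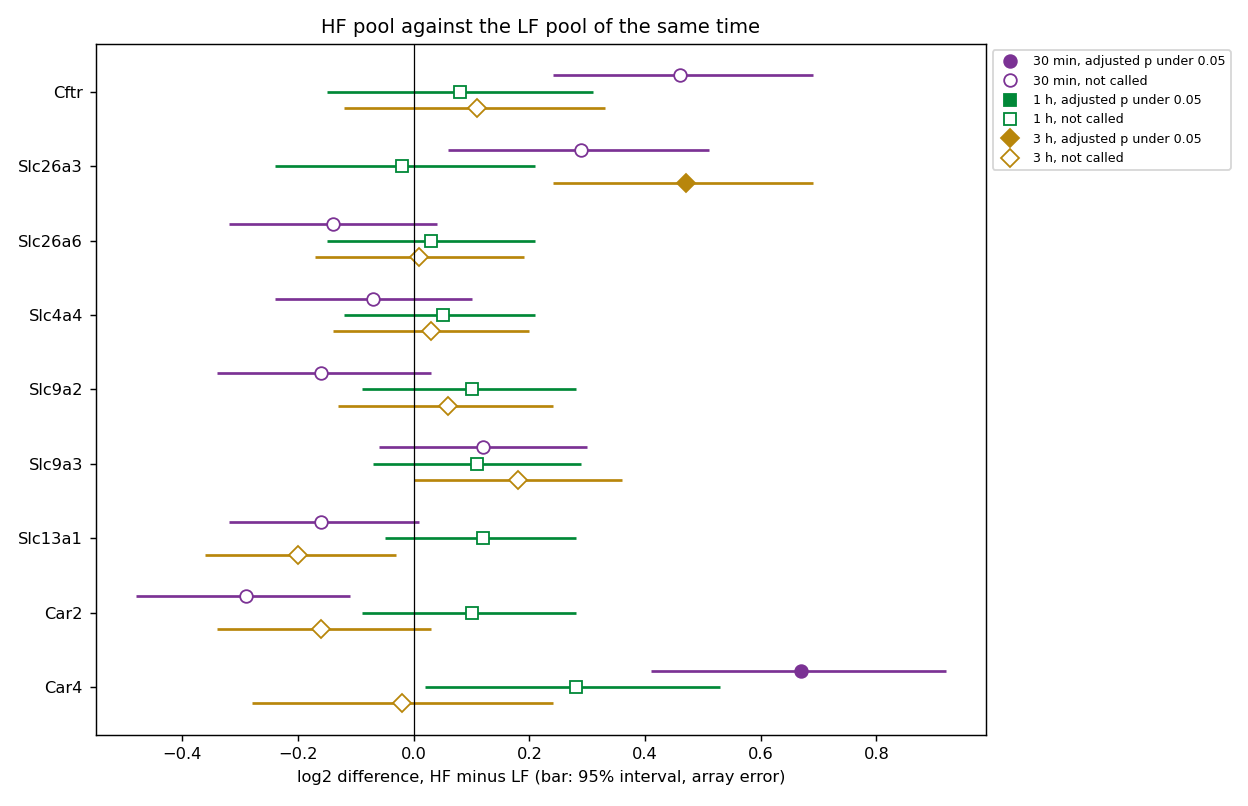
Log2 difference between the HF and the LF pool of the same time (horizontal axis) for the standing probe set of each gene at 30 min (circles), 1 h (squares) and 3 h (diamonds), with 95% intervals that cover array error and filled symbols for an adjusted p under 0.05. Slc26a3 at 3 h (0.47) and Car4 at 30 min (0.67) are the filled ones.

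Slc4a4 encodes the basolateral sodium bicarbonate cotransporter NBCe1, the main entry of bicarbonate into the enterocyte. By its brightest probe set, 1434096_at, the values were 10.01 and 10.00 after fasting, 10.13 and 10.10 in LF30min, 10.00 and 9.96 in LF1h, 9.91 and 9.90 in LF3h, 10.10 and 9.99 in HF30min, 10.00 and 10.05 in HF1h and 9.94 and 9.92 in HF3h. No comparison was called by this probe set, and the largest difference was -0.21 between LF3h and LF30min (95% interval -0.38 to -0.04, adjusted p = 0.19). A different course was measured by 3 other probe sets, which read lowest in HF3h. By 1426432_a_at, the values were 9.45 and 9.36 after fasting, 9.47 and 9.43 in LF30min, 9.16 and 9.04 in LF1h, 8.95 and 8.90 in LF3h, 9.12 and 9.13 in HF30min, 9.03 and 8.97 in HF1h and 8.85 and 8.86 in HF3h, and the Fasting and LF30min arrays lay above those of all 5 other groups. This probe set fell by 0.55 in HF3h (SE 0.08, adjusted p = 0.001 by limma), by 0.48 in LF3h (adjusted p = 0.0035), by 0.40 in HF1h (adjusted p = 0.031) and by 0.53 from LF30min to LF3h (adjusted p = 0.0025). The first and last of these calls held under all 19 refits, whereas the LF3h call was lost without Fasting array 1 (0.053). The HF1h call was lost under 6, which left out either array of Fasting, HF30min or HF1h, with adjusted p up to 0.26.

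By 1452071_at, the Slc4a4 values were 10.27 and 10.00 after fasting, 10.23 and 10.27 in LF30min, 10.00 and 9.91 in LF1h, 9.79 and 9.76 in LF3h, 9.77 and 9.79 in HF30min, 9.84 and 9.87 in HF1h and 9.61 and 9.58 in HF3h. It fell by 0.54 in HF3h against fasting (SE 0.09, adjusted p = 0.0034 by limma, 0.056 without Fasting array 1). It fell by 0.47 from LF30min to LF3h (adjusted p = 0.012), a call lost without any one of the 4 arrays of those groups (up to 0.10). A fall of 0.36 in LF3h against fasting (adjusted p = 0.043) and a lower level by 0.47 in HF30min than in LF30min (adjusted p = 0.049) were near the threshold, and were lost under 14 and 15 of 20 alternatives, with adjusted p up to 0.41 and 0.27. The first was lost without Fasting array 1 or either array of LF30min, LF3h, HF30min, HF1h or HF3h, and the second without any array outside the Fasting group. By 1421225_a_at, HF3h fell by 0.58 against fasting (SE 0.13, adjusted p = 0.018), which was lost without Fasting array 1 (0.15), Fasting array 2 (0.062) or HF3h array 1 (0.16). Where all probe sets of the gene were averaged, Slc4a4 fell by 0.27 in LF3h (adjusted p = 0.019) and by 0.33 in HF3h (adjusted p = 0.0049) against fasting. The 3 probe sets correlated with each other at r of 0.89 to 0.94 over the 7 group means, and with 1434096_at at 0.54 to 0.76. The fifth, 1450169_at, had a mean of 3.35 and no call.

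**Figure D4:**
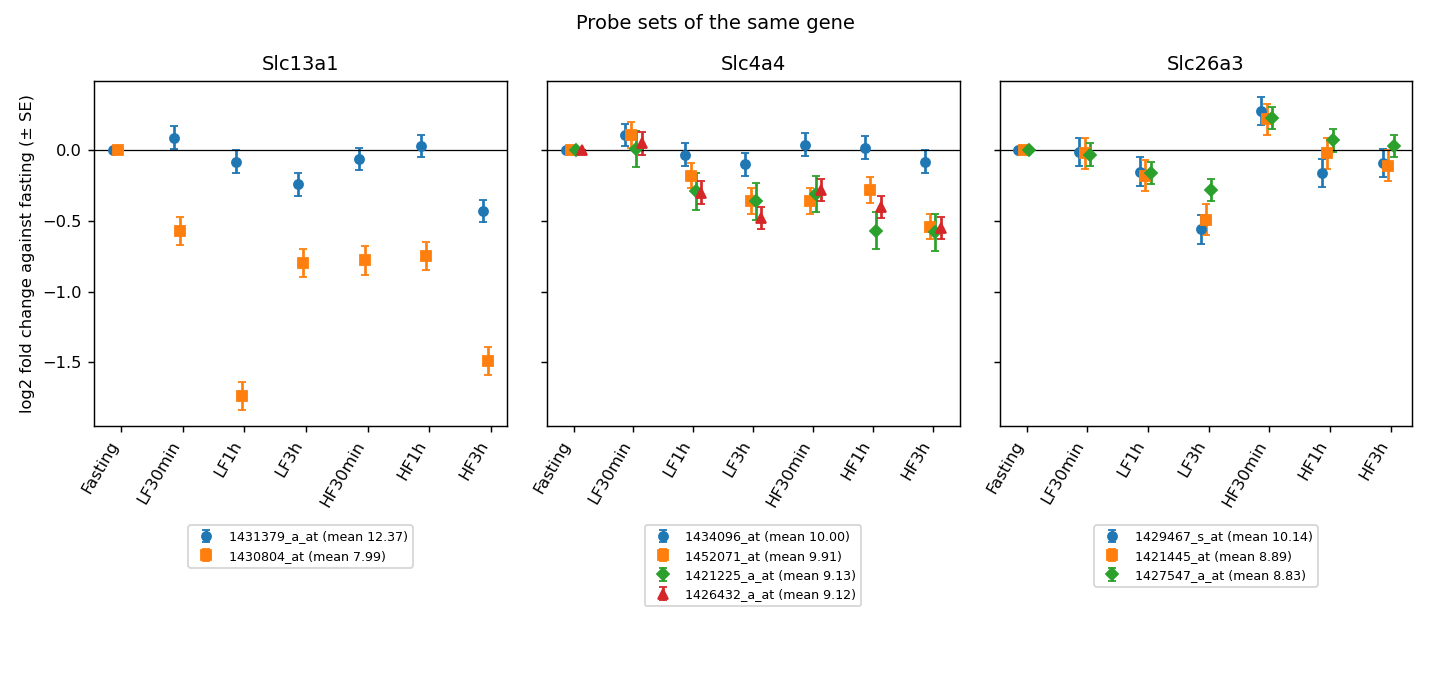
Log2 fold change against Fasting (vertical axis, bars ± SE) in each fed group by the probe sets of Slc13a1, Slc4a4 and Slc26a3 whose mean log2 value was at least 6, each probe set with its own symbol and its mean in the legend. The Slc13a1 probe set 1430804_at reaches -1.74 in LF1h and -1.49 in HF3h, far below the other probe set of that gene.

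No standing probe set of an apical sodium/proton exchanger was called. Slc9a3 encodes NHE3, the main apical exchanger for sodium absorption, and its values (1441236_at) were 10.61 and 10.73 after fasting, 10.59 and 10.66 in LF30min, 10.87 and 10.83 in LF1h, 10.75 and 10.84 in LF3h, 10.78 and 10.70 in HF30min, 10.94 and 10.98 in HF1h and 10.99 and 10.95 in HF3h. The HF1h and HF3h arrays lay above those of every other group. Their differences from fasting were 0.29 (95% interval 0.11 to 0.47, adjusted p = 0.16) and 0.30 (0.12 to 0.48, adjusted p = 0.055), neither of them called by limma. A dimmer probe set of the gene, 1432771_at, had a mean of 6.39 and fell by 0.57 in HF30min (adjusted p = 0.049 by limma). This call was lost under 13 of 20 alternatives, among them leaving out either array of Fasting, LF30min, LF3h, HF30min or HF1h, with adjusted p up to 0.44, and the 2 probe sets correlated at r = -0.25 over the 7 group means. Slc9a2 encodes NHE2, a second apical exchanger, and its values (1437259_at) were 8.61 and 8.73 after fasting, 8.63 and 8.71 in LF30min, 8.56 and 8.52 in LF1h, 8.48 and 8.57 in LF3h, 8.57 and 8.46 in HF30min, 8.63 and 8.64 in HF1h and 8.54 and 8.62 in HF3h. Its group means spanned 8.51 to 8.67, and no difference exceeded 0.16 in size.

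Slc13a1 encodes the apical sodium/sulfate cotransporter NaS1, which takes up inorganic sulfate. By the brightest probe set, 1431379_a_at, the values were 12.49 and 12.44 after fasting, 12.57 and 12.54 in LF30min, 12.37 and 12.39 in LF1h, 12.21 and 12.24 in LF3h, 12.41 and 12.40 in HF30min, 12.52 and 12.48 in HF1h and 12.01 and 12.05 in HF3h. The HF3h arrays were the lowest and the LF3h arrays the next lowest, and neither overlapped another group. Slc13a1 fell by 0.43 in HF3h against fasting (SE 0.08, adjusted p = 0.0036 by limma), a call kept under all 21 refits, at 1.35-fold. It fell by 0.37 from HF30min to HF3h (adjusted p = 0.009) and by 0.33 from LF30min to LF3h (adjusted p = 0.028). The HF decline was lost without HF30min array 1 (0.061), HF30min array 2 (0.062) or HF3h array 1 (0.074), and the LF decline without any one of the arrays of LF30min (0.15 and 0.09) or LF3h (0.15 and 0.13).

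By the dimmer Slc13a1 probe set 1430804_at, the values were 8.86 and 8.87 after fasting, 8.28 and 8.31 in LF30min, 7.28 and 6.98 in LF1h, 8.06 and 8.07 in LF3h, 8.01 and 8.15 in HF30min, 8.14 and 8.08 in HF1h and 7.34 and 7.41 in HF3h. Every fed array lay below both Fasting arrays, the LF1h arrays were the lowest, and the HF3h arrays lay just above them with no overlap. This probe set fell in all 6 fed groups. The largest fall was 1.74 ± 0.10 in LF1h, which is 3.33-fold (adjusted p = 3.3e-07 by limma), followed by 1.49 ± 0.10 in HF3h, which is 2.81-fold (adjusted p = 9.4e-07). The falls in LF3h (0.80), HF30min (0.78) and HF1h (0.75) had adjusted p of 0.00044, 0.00094 and 0.0016, and the fall of 0.57 in LF30min had one of 0.02. The order of the meals changed with time: HF1h exceeded LF1h by 0.98 (95% interval 0.77 to 1.20, adjusted p = 0.00058), whereas HF3h against LF3h was -0.69 (95% interval -0.90 to -0.47, adjusted p = 0.0023). It also fell by 0.71 from HF30min to HF3h (adjusted p = 0.00069). Apart from LF30min, lost without any one of the arrays of Fasting or LF30min (adjusted p up to 0.18), each of these calls held under all 20 refits, and with the 2-fold minimum the falls in LF1h and HF3h alone remained. By the brightest probe set, LF1h differed from fasting by -0.08 (adjusted p = 0.75 by limma), which was not called. Its differences from fasting in LF30min (0.09) and HF1h (0.03) were positive and not called either. Between the meals it gave 0.12 at 1 h and -0.20 at 3 h (adjusted p = 0.63 and 0.24), neither of them called. The 2 probe sets of the gene correlated at r = 0.55 over the 7 group means, and which transcripts each of them reads was not tested.

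The carbonic anhydrases make bicarbonate from carbon dioxide and water, Car2 in the cytosol and Car4 at the outer face of the membrane. For Car2 (1448752_at) the values were 9.80 and 9.77 after fasting, 10.04 and 10.07 in LF30min, 9.69 and 9.79 in LF1h, 9.76 and 9.79 in LF3h, 9.77 and 9.75 in HF30min, 9.78 and 9.89 in HF1h and 9.54 and 9.69 in HF3h. Both LF30min arrays lay above all others, by 0.27 over fasting (95% interval 0.09 to 0.46), and the adjusted p of 0.33 by limma missed the threshold. HF30min against LF30min was -0.29 (95% interval -0.48 to -0.11, adjusted p = 0.23). For Car4 (1448949_at) the values were 5.63 and 5.83 after fasting, 5.31 and 5.74 in LF30min, 5.86 and 5.91 in LF1h, 6.0 and 6.02 in LF3h, 6.23 and 6.15 in HF30min, 6.18 and 6.14 in HF1h and 6.0 and 5.98 in HF3h, which are low on these arrays: its mean was under log2 6, where a difference can understate a change. Car4 was higher in HF30min than in LF30min by 0.67 ± 0.12, or 1.59-fold (adjusted p = 0.025 by limma), and rose by 0.48 from LF30min to LF3h (adjusted p = 0.039). The 2 LF30min arrays were 5.31 and 5.74, and without the first of them the difference between the meals was 0.45 with an adjusted p of 0.23. That call was also lost without HF30min array 1 (0.22) or array 2 (0.14), and the rise to LF3h under 10 of 20 alternatives (adjusted p up to 0.30), all but 1 of which left out an array of LF30min, LF3h, HF30min, HF1h or HF3h. The other Car4 probe set, 1418094_s_at, had a mean of 5.34 and no call.

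Genes of the same transport pathways were counted by lists, beside the background shares given above. Of 19 measured genes of chloride secretion and epithelial channels and pumps, 3 rose in HF30min against fasting, and they were Slc12a2, Kcne3 and Fxyd3. Slc12a2, the basolateral cotransporter NKCC1 that loads the cell with chloride, read 7.87 and 7.89 after fasting, 7.91 and 7.95 in LF30min, 8.58 and 8.54 in HF30min and 7.69 and 7.63 in HF3h. It rose by 0.68 in HF30min (adjusted p = 0.0019 by limma), exceeded LF30min by 0.63 (adjusted p = 0.0071), and fell by 0.90 from HF30min to HF3h (adjusted p = 5.2e-05). Kcne3, the accessory subunit of the basolateral potassium channel KCNQ1, was at low values, 4.51 and 4.66 after fasting and 5.81 and 5.48 in HF30min, a rise of 1.06 (adjusted p = 0.00048). Fxyd3, a regulator of the sodium pump, rose by 0.80 in HF30min (adjusted p = 0.00054) and by 0.56 in LF30min (adjusted p = 0.018). From HF30min to HF3h, 6 of these 19 genes fell and 0 rose, with a median of -0.14, against 0.01 over all genes. Among the 6 was Kcnn4, a calcium-activated potassium channel, which fell by 0.49 (adjusted p = 0.005). In LF1h, HF1h, HF1h against LF1h and HF3h against LF3h, limma called 0 of the 19, with 4, 0, 2 and 4 at an unadjusted p under 0.05.

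**Figure D5:**
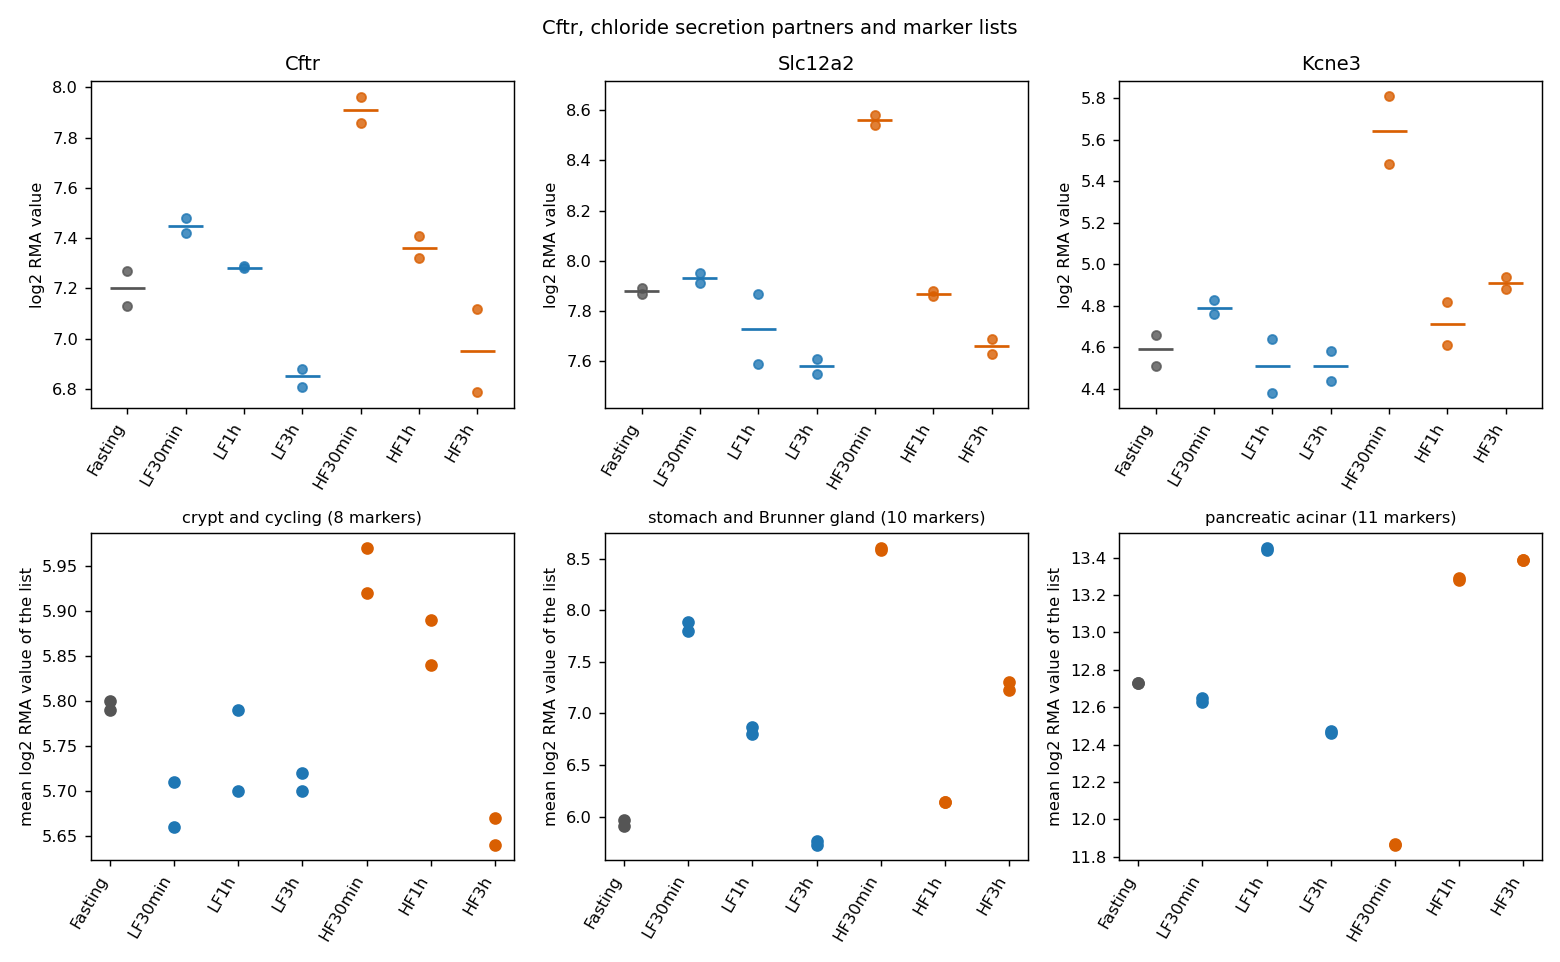
Log2 RMA values (vertical axes, which do not start at 0) of Cftr, Slc12a2 and Kcne3, and the mean log2 value of the crypt, stomach and Brunner gland, and pancreatic acinar marker lists, on each array of the 7 groups. Points are arrays and lines are group means; Cftr, Slc12a2, Kcne3 and the first 2 lists are highest, and the acinar list lowest, in HF30min.

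Among 16 other bicarbonate and anion carriers of the SLC4 and SLC26 families, Slc26a2 and Slc4a5 gave most of the calls. Slc26a2, a sulfate/anion exchanger, read 9.34 and 9.40 after fasting, 8.68 and 8.90 in LF3h and 8.52 and 8.56 in HF3h, so that both 3 h groups lay below fasting without overlap. It fell by 0.58 in LF3h (adjusted p = 0.0026 by limma) and by 0.83 in HF3h (adjusted p = 0.0001), as well as by 0.84 and 0.94 from 30 min to 3 h in the LF and HF meals. Slc4a5, an electrogenic sodium bicarbonate cotransporter at a low mean of 5.76, fell by 0.46 in LF1h, 0.82 in LF3h, 0.56 in HF1h and 0.79 in HF3h, with adjusted p between 0.00014 and 0.023. In HF3h, 3 of the 16 genes fell and 0 rose, the third being the basolateral anion exchanger Slc4a2 (-0.45, adjusted p = 0.042), and the median of the list was 0.08.

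In contrast, no gene of 11 other sodium/proton exchangers and their PDZ-domain partners was called by limma in any of the 11 comparisons, with between 0 and 4 at an unadjusted p under 0.05. Of 14 other genes of the carbonic anhydrase family, whose products were not assessed for enzyme activity, only Car8 was called, in 1 comparison (-0.68 from HF30min to HF3h, adjusted p = 0.0046, mean 5.63). Of 16 genes of sulfate uptake and use, 1 each was called in 4 comparisons. Lower were the citrate carrier Slc13a2 (-0.39 in HF3h, adjusted p = 0.016 by limma) and Papss1, which makes the active sulfate donor (-0.52 from HF30min to HF3h, adjusted p = 0.005). Sult1c2, at a low mean of 4.40, was also lower (-0.68 from LF30min to LF3h, adjusted p = 0.0087). Sult2b1 was higher (0.32 in LF3h, adjusted p = 0.04).

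Of 21 measured genes that signal to CFTR or NHE3, 3 rose and 3 fell in HF3h. Ptger4, a prostaglandin E2 receptor that raises cAMP, read 9.16 and 9.21 after fasting, 9.83 and 9.87 in LF3h and 10.21 and 10.19 in HF3h. It rose by 0.41 in LF1h, 0.67 in LF3h, 0.39 in HF1h and 1.01 in HF3h (adjusted p from 3.3e-06 to 0.029 by limma), and HF3h exceeded LF3h by 0.35 (adjusted p = 0.041). Ptger3, another prostaglandin E2 receptor gene, rose by 0.81 in HF3h (adjusted p = 0.012), at a very low mean of 3.24. Sgk1, a kinase that stimulates sodium transport, fell by 0.70 in LF1h, 0.40 in LF3h and 0.41 in HF3h, with adjusted p of 0.00067, 0.021 and 0.018. Its relative Sgk2 rose by 0.33 in LF3h (adjusted p = 0.044) and by 0.66 in HF3h (adjusted p = 0.0004). Of 6 aquaporins, the water channel Aqp1 rose by 0.82 in LF1h, 0.52 in HF30min, 0.60 in HF1h and 0.71 in HF3h (adjusted p from 0.00041 to 0.026), and Aqp3 and Aqp8, both at low means of 5.68 and 4.73, rose in HF3h by 0.85 and 0.60 (adjusted p = 0.0011 and 0.024).

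Over the 7 group means, Kcnn4 followed the pattern of Cftr most closely among 781 candidate genes (r = 0.995), followed by the ribonuclease gene Rnase4 (0.978) and the peptidase gene Cndp2 (0.964). For Slc26a3 the nearest were Myzap (0.980), Angptl4 (0.934) and Pdk4 (0.933). Slc13a1 by its brightest probe set was nearest to Nfkbia (0.981), Me2 (0.963) and Fam110c (0.960), and by 1430804_at to Foxq1 (0.929), a choice of probe set made after its values were seen. Car4 was less closely followed, by Olfm4 at r = 0.844 among 782 candidates. These correlations describe 7 pools on shared arrays and carry no test.

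Markers of other cell types moved between the pools, and their part in the results above was not tested. Villus enterocyte markers were high in every pool, with a mean log2 value of 12.26 to 12.34 on every array for 10 measured genes, and their medians against fasting lay between -0.04 and 0.03. Stomach and Brunner gland markers were called higher for 10 of 10 genes in HF30min (median 2.28) and 6 of 10 in LF30min (median 1.64), and all 10 fell from HF30min to HF3h (median -1.16). The 10 were Muc5ac, Tff1, Tff2, Gkn1, Gkn2, Gkn3, Atp4a, Atp4b, Cblif and Pgc. Muc6 had no probe set of its own, and this list does not separate Brunner glands from stomach. The list mean of these markers was 5.97 and 5.91 after fasting, 7.89 and 7.80 in LF30min, and 8.60 and 8.58 in HF30min. The groups in which Cftr was highest were thus also highest in these markers. In HF3h, however, the list mean was 7.30 and 7.23, with 5 of 10 genes called higher than fasting (median 0.67). Cftr in HF3h stood at -0.24 against fasting (adjusted p = 0.24 by limma). Of 8 crypt and cycling markers, with 4 to 6 under log2 6 in each group, Olfm4 alone rose in HF30min (0.57, adjusted p = 0.022), and 3 fell from HF30min to HF3h, with list means of 5.97 and 5.92 in HF30min and 5.67 and 5.64 in HF3h. Pancreatic acinar markers, all 11 of them, fell in HF30min (median -0.89) and rose in LF1h (median 0.65) and HF3h (median 0.62), the 2 groups in which Slc13a1 probe set 1430804_at was lowest, but 10 of 11 also rose in HF1h (median 0.56). Smooth muscle markers fell for 4 of 8 genes from LF30min to LF3h (median -0.35), and goblet cell markers rose for 1 of 7 in each of LF30min, HF30min and HF3h. Of 4 erythrocyte markers, all were under log2 6 in every group.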

How the data were processed

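For each of 7 groups, RNA of the duodenal mucosa of 20 mice was pooled and hybridized to 2 MOE 430 v2.0 arrays (Affymetrix). The deposited values are log2 expression values that the authors made by RMA (background correction, quantile normalization and probe set summary), and they were used as deposited. Groups came from the sample titles. Of 45101 probe sets, 64 controls were set aside, and 34945 had 1 gene in the platform annotation, giving 18193 genes (34741 probe sets matched to RefSeq by Entrez ID). The array number limits the precision: the 2 arrays of a group correlated at 0.9958 to 0.9971, and their median SD was 0.0691 to 0.0837.

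Group means were fitted to all 14 arrays with limma 3.58.1 (R 4.3.3), with Benjamini-Hochberg adjustment over 45037 probe sets within each of 11 comparisons, and 7 residual degrees of freedom. Tested on simulated data for HF3h against fasting over 45037 probe sets, the fit recovered 1 of 50 changes of 1.25-fold, 24 of 50 of 1.5-fold, 48 of 50 of 2-fold and 50 of 50 of 3-fold. The changed probe sets were drawn from those with a mean of at least 6. The other 44837 probe sets were simulated without a change, and 8 of them were called. Recovery at other shares of changed probe sets was not tested. Genes named were the 9 members with every probe set, up to 4 called genes with the largest change per list, and the 3 most correlated genes for members whose group means spanned at least 0.5, among genes with a mean of at least 7. The members and lists were chosen with earlier results of these data known. Alternatives were a filter at a mean of 6, a trended robust prior, quantile and median scaling, a replicate block, averaging over the probe sets of each gene, the omission of s, x and a probe sets, a 2-fold minimum, and the omission of each array. Same-numbered arrays were not paired: over 21 pairs of groups their deviations correlated at -0.187 to 0.151. Summaries and figures were made in Python 3.11.15.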

Additional observations from a re-analysis of the deposited data

Results flagged for a closer look

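In 5 cases a member's change after the HF meal differed from its change after the LF meal at the same time, by limma's direct contrast of the 2 meals. Of the members' 20 probe sets, 2 were called in HF30min against LF30min, 1 in HF1h against LF1h and 2 in HF3h against LF3h. The share of all probe sets called in these contrasts was not counted. Slc26a3 (1429467_s_at) was 0.47 higher on the log2 scale in HF3h than in LF3h, Slc4a4 (1452071_at) differed by -0.47 between HF30min and LF30min, and Car4 (1448949_at) was 0.67 higher in HF30min than in LF30min. The Slc13a1 probe set 1430804_at differed by 0.98 between HF1h and LF1h and by -0.69 between HF3h and LF3h. The last pair held under all 20 refits, at 1.98-fold and 1.61-fold, and the other 3 were lost in 11 of 21 (Slc26a3), 15 of 20 (Slc4a4) and 3 of 20 (Car4). None of the 5 differences reached 2-fold. By the brightest Slc13a1 probe set, 1431379_a_at, HF1h differed from LF1h by 0.12 and HF3h from LF3h by -0.20. Neither was called (adjusted p = 0.63 and 0.24 by limma).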

How the results depend on the processing

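Of 33 calls over the members' probe sets, 12 were kept under every alternative that refits the data (all those listed but the 2-fold minimum) and 0 changed sign. Of the 12 calls of standing probe sets, 2 were kept under all these refits. Where a refit dropped a standing probe set, the brightest one left stood for the gene. With a 2-fold minimum, 0 of the 9 genes were called in each comparison. With a filter at a mean of 6, the count rose from 1 to 4 in LF3h, from 1 to 3 in HF3h, from 0 to 1 in HF1h, from 1 to 2 in HF30min against LF30min and in HF3h against LF3h, from 4 to 6 in LF3h against LF30min and from 3 to 4 in HF3h against HF30min. That filter removes Car4, so the 2 genes in HF30min against LF30min were Cftr and Car2. A trended robust prior gave 1 gene in LF30min and in HF1h, 4 in LF3h and in HF30min, 3 in HF3h and in HF3h against LF3h, 5 in HF30min against LF30min and 8 in LF3h against LF30min. Quantile scaling gave 2 in LF3h and 2 in HF3h, and median scaling gave 0 in HF3h against LF3h. With the probe sets of each gene averaged, the count was 1 in LF1h, in HF1h and in HF1h against LF1h, 3 in LF3h, and 2 in HF3h and in HF3h against LF3h. Without s, x and a probe sets, it was 1 in LF30min, LF1h, HF1h, HF1h against LF1h and HF3h against HF30min, and 2 in LF3h and in LF3h against LF30min. The share of all genes called under each of these settings was not counted, so these counts have no background beside them. The cause of these shifts was not tested.

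Leaving out each array in turn gave 0 to 2 genes in LF3h, in HF30min and in HF30min against LF30min, 0 to 1 in HF1h and in HF3h against LF3h, 0 to 4 in LF3h against LF30min, and 1 to 3 in HF3h against HF30min. The replicate block, for arrays that share only a number, moved the count in HF3h against LF3h from 1 to 0 and in HF3h against HF30min from 3 to 2, in both by the loss of Slc26a3 (adjusted p = 0.053 and 0.059), and left the count in the other 9 comparisons as it was. Each pool had 1 RNA sample, so differences between pools of mice, which were not measured, cannot be told apart from effects of the meal. Changes under 1.5-fold were often missed at this number of arrays, and Car4, Kcne3, Slc4a5 and Aqp8 lay at low signal.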
